A study of Mus musculus with 56 samples.

Results

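The effect of a glucokinase activator (GKA) was described in the livers of 20 male mice homozygous for leucine at residue 446 of the glucokinase regulatory protein (genotype LL). These were all libraries that the labels gave as LL, 20 of the 56 in the series, and no measured value was used to choose them. The LL group (n = 10, mice 37 to 46) was kept for 20 weeks on HFHSD, a diet rich in fat (45%) to which 10% glucose and 5% fructose belonged. The LL GKA group (n = 10, mice 47 to 56) had the same diet with GKA at 3 mg/kg. All 20 mice carried the P446L knock-in on both alleles, so that the groups compared share the variant and, by their labels, differ by the agent. The labels give no batch or hour of collection, so a difference of that kind cannot be told apart from the agent. The labels name neither the compound nor the length of its use. The same contrast in PP mice (proline on both alleles, 9 without and 10 with GKA) and in PL mice (heterozygous, 8 and 8), on the same diet and dose, is given beside it. No liver is shared between these contrasts, and PP mouse 7 was left out.

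Glucokinase (GK) phosphorylates glucose in hepatocytes. The regulatory protein GKRP (gene Gckr) binds GK in the nucleus and keeps it inactive, and a phosphate of fructose weakens this binding. Activators of GK raise its affinity for glucose. More hexose phosphate is known to activate ChREBP, the transcription factor that induces genes of glycolysis, fructose metabolism and lipogenesis. The question of the comparison was whether an activator altered the liver transcriptome of mice with the variant.

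Codon 446 of Gckr lies in exon 15 of transcripts Gckr-201 and Gckr-202 (GRCm39, plus strand). The codon takes chr5:31466275-31466277 and is the last of the exon, whose coding part runs from 31466180 to 31466277. The reference sequence around it is shown because every mouse of this comparison carried the variant there. The codon of the reference allele (proline) is in capitals and the 45 bases after it are intron.
Gckr codon 446, chr5:31466230-31466322: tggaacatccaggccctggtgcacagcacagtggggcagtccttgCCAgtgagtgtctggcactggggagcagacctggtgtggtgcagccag
The letters of the knock-in allele are not in the files used here, so it is not printed.

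Sequencing depth did not separate the groups. Total reads per liver were between 5557175 and 7785792 in LL and between 5478325 and 7058689 in LL GKA. Mitochondrial transcripts took 10.3 ± 1.48% of the reads in LL (SD, n = 10) and 10.3 ± 1.17% in LL GKA (n = 10). Total reads, genes with at least 10 reads, the mitochondrial share and the share of the 10 most abundant genes gave an adjusted p of 0.996 each (two-sided permutation tests, 4 measures). All 10 hepatocyte markers were detected and tested. Of the markers of other cell types, Adipoq and Lep of adipose tissue, Acta1, Ckm and Tnni2 of muscle and 6 of 8 pancreas markers were at 0 in all 20 livers. LL mice 37, 43, 45 and 46 stood apart from the other LL livers over all genes and clock genes, and values without them are given after the gene lists.

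No gene passed the threshold for a differentially expressed gene (DEG) with GKA in LL livers. A DEG needed an adjusted p below 0.05 in the quasi-likelihood test of edgeR, and its fold change had to reach 1.3 or fall to 0.7. Of 10458 genes tested, 0 were called (0%), and the smallest adjusted p was 0.296, shared by 4 genes, among them Akr1c19, Cebpb and Fads3. At an unadjusted p below 0.05, 308 genes (2.95%) had higher and 335 (3.2%) had lower values with GKA, which are 643 genes where 523 would be the threshold's share of all genes. The median log2 fold change was 0.002, and 0 genes had groups that did not overlap between the 10 and 10 livers. The 95% confidence interval of the fold change lay within 1.5-fold either way for 8068 genes (77.1%) and within 2-fold for 9927 genes (94.9%). DESeq2, the tool of the study's methods, called 6 of the same 10458 genes (0.0574%) in the 20 livers. It called 6 of 11477 genes (0.0523%) when fitted on all 6 groups, and 2 genes, Gpt and Akr1c19, were called in both. edgeR with an offset for transcript length called 1 gene (0.00956%), Smug1.

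**Figure D1:**
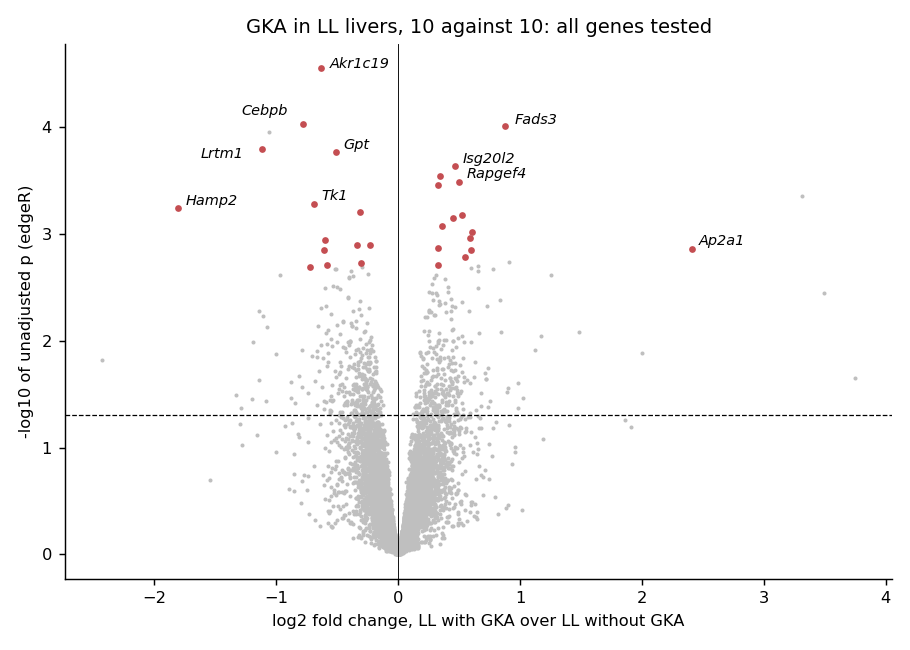
Log2 fold change with GKA in LL livers (x axis) against -log10 of the unadjusted edgeR p (y axis), with 1 point for each of the 10458 genes and 10 livers a group. Red points are 29 genes with the smallest p in either direction, the dashed line is p 0.05, and Akr1c19 with a log2 fold change of -0.63 has the smallest p among them.

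The regulator of GK was described first. Gckr (chromosome 5, 31454787 to 31484658, plus strand) was at 152 ± 20.3 CPM in LL and 153 ± 20.6 CPM in LL GKA, where CPM are reads of a gene scaled to a common library total. Its log2 fold change was 0.01 (SE 0.09, 95% interval -0.18 to 0.19, edgeR adjusted p 0.992). With the offset for transcript length it was 0.22. In PP and PL livers the log2 fold changes of Gckr with GKA were -0.11 (SE 0.09) and -0.10 (SE 0.09).

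The share of transcript Gckr-202 did not differ beyond the spread between livers either. Gckr-202, a coding transcript, took 42.6% to 58.2% of the Gckr reads in LL (median 51.2%) and 28.4% to 62.0% in LL GKA (median 45.5%). The mean share in LL GKA minus that in LL was -4.06 percentage points (two-sided permutation p 0.289). The spread of this share was 5.39 percentage points (SD) in LL and 10.5 in LL GKA. By TPM, which is per length, its share was 32.2 ± 10.7% in LL and 24.8 ± 11.5% in LL GKA (n = 10 each, two-sided permutation p 0.152). Transcripts that overlap share reads, and their division was estimated by Salmon.

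Genes downstream of glucose phosphorylation had no member past an unadjusted p of 0.05 in the list of ChREBP, fructolysis and glycolysis. Of its 20 genes, all tested, 13 had a log2 fold change above 0, and the values lay between -0.14 and 0.24 around a median of 0.02. Without the 4 LL livers that stood apart, 15 were above 0 and the median was 0.08. In that fit 2 of the 20, Pklr among them, had higher values at an unadjusted p below 0.05, beside 5.11% of all genes. Pklr, which encodes liver pyruvate kinase, had a median of 604 CPM in LL (436 to 723) and 608 CPM in LL GKA (490 to 771). Its log2 fold change was 0.12 (95% interval -0.11 to 0.35). Txnip, a sensitive target of ChREBP, varied from 38.6 to 159 CPM in LL and from 39.4 to 171 CPM in LL GKA, with a log2 fold change of 0.03 (interval -0.50 to 0.56). Mlxipl, the gene of ChREBP itself, was at 0.07 (interval -0.19 to 0.32). For these 3 genes the interval ended below 1.5-fold in both directions.

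A second list held 17 genes that GK overexpression is known to induce in hepatocytes (GK-induced), of which 12 had higher mean values with GKA. Its median log2 fold change was 0.06, beside 0.07 in PP and 0.14 in PL. At an unadjusted p below 0.05, 0 genes of this list had higher values and 1 had lower values, beside 2.95% and 3.2% of all genes. Without the 4 LL livers that stood apart, 2 had higher and 0 lower values, beside 5.11% and 5.23% of all genes. The list's median was then 0.09.

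Genes of glucose output and storage were mostly a little below 0. G6pc1, the catalytic subunit of glucose-6-phosphatase, had a log2 fold change of 0.24 (SE 0.20) and Pck1, of gluconeogenesis, 0.10 (SE 0.20). In the list of gluconeogenesis and glucose output 3 of 14 genes were above 0 and the median was -0.07. The members at an unadjusted p below 0.05 were Gpt and Foxo1, both lower. Foxo1, the transcription factor that insulin holds out of the nucleus, was at -0.33 (SE 0.15). In the glycogen list 3 of 13 genes were above 0, with a median of -0.06 and 0 genes at an unadjusted p below 0.05.

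Among the 6 genes called by DESeq2 in the 20 livers were Akr1c19, Cebpb, Lrtm1 and Gpt, all lower with GKA, and Fads3, which was higher. The plot of these 5 genes by liver shows that their groups overlapped.

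Akr1c19 encodes an aldo-keto reductase and had the smallest p of all named genes (chromosome 13, 4278699 to 4302842). It ranged from 16.1 to 36.3 CPM in LL (median 24.1) and from 13.0 to 18.9 CPM in LL GKA (median 15.8). Of the LL livers 9 lay above the highest LL GKA liver, and mouse 44 was the exception. The log2 fold change was -0.63 (SE 0.12), with an adjusted p of 0.296 by edgeR and 0.00553 by DESeq2.

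Gpt encodes alanine aminotransferase, which passes nitrogen between alanine and glutamate (chromosome 15, 76579616 to 76583890). In LL it ranged from 138 to 224 CPM (median 169) and in LL GKA from 82.1 to 163 CPM (median 122). All 10 LL GKA livers were below the LL median and 7 were below every LL liver. The log2 fold change was -0.51 (SE 0.11, adjusted p 0.304 by edgeR and 0.0166 by DESeq2). In PP and PL livers it was -0.05 (SE 0.14) and -0.13 (SE 0.11).

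Cebpb encodes C/EBP-beta, a transcription factor of hepatic acute phase and gluconeogenic genes (chromosome 2, 167530835 to 167532338). It ranged from 7.59 to 17.2 CPM in LL (median 11.6) and from 3.74 to 9.46 CPM in LL GKA (median 7.23). The log2 fold change was -0.78 (SE 0.16, adjusted p 0.296 by edgeR and 0.0111 by DESeq2). Reads of Cebpb may be shared with Peds1, whose annotated exons overlap it.

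Lrtm1, a leucine-rich repeat membrane protein, ranged from 4.86 to 18.2 CPM in LL and from 1.80 to 7.77 CPM in LL GKA. Its log2 fold change was -1.12 (SE 0.25, adjusted p 0.304 by edgeR and 0.0136 by DESeq2). Fads3, a member of the fatty acid desaturase family, ranged from 4.6 to 12.8 CPM in LL (median 7.28) and from 8.52 to 20.7 CPM in LL GKA (median 14.7). Here 8 LL GKA livers lay above every LL liver, and mouse 47 was the lowest of its group. The log2 fold change of Fads3 was 0.88 (SE 0.19, adjusted p 0.296 by edgeR and 0.0111 by DESeq2), beside 0.11 (SE 0.26) in PP and 0.36 (SE 0.32) in PL.

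**Figure D2:**
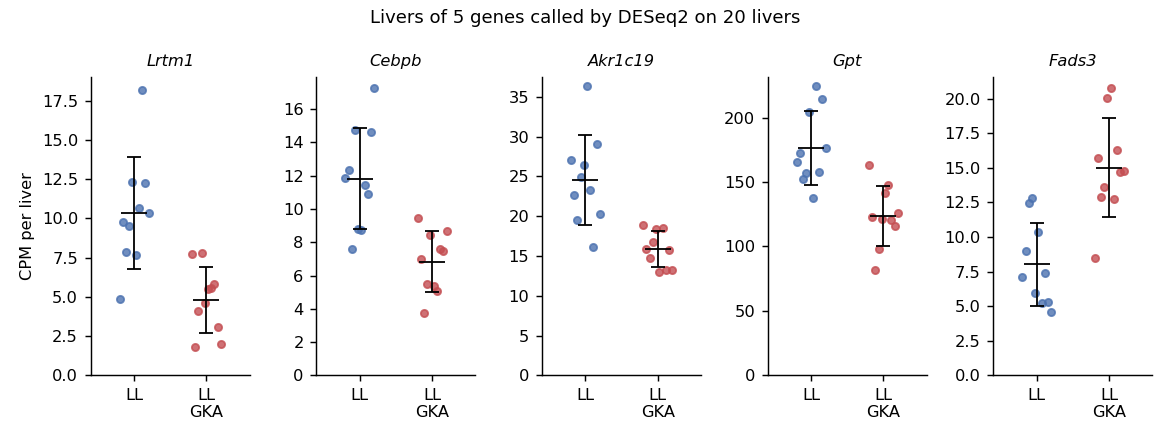
CPM in each liver (y axes, from 0) of 5 of the 6 genes called by DESeq2 in the 20 livers, with LL in blue and LL with GKA in red (10 livers each). Bars are the mean ± SD. The groups of every gene overlap, with 9 LL livers of Akr1c19 above all LL GKA livers.

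The fit on all 6 groups by DESeq2 added Casp8, Agap2, Rpl30-ps9 and Gm63662 to Gpt and Akr1c19. Casp8, the initiator caspase of death receptors, had medians of 16.4 CPM in LL and 20.4 CPM in LL GKA (log2 fold change 0.45, SE 0.11, edgeR adjusted p 0.470). Agap2, a GTPase-activating protein, was too low for the filter of the edgeR fit, at 0.622 ± 0.358 CPM in LL and 1.77 ± 0.564 CPM in LL GKA (n = 10 each). Rpl30-ps9, a ribosomal protein pseudogene, was at 0 in all 10 LL livers and above the LL livers in 3 LL GKA livers, with a highest value of 44.2 CPM. The predicted gene Gm63662 had a median of 0 in both groups and at most 67.0 CPM in LL and 5.53 CPM in LL GKA. Reads of such pseudogenes may come from their parent genes. Smug1, a uracil-DNA glycosylase called with the length offset (log2 fold change 1.53, adjusted p 0.0487), had nearly the same CPM in both groups, 4.48 ± 1.01 and 4.73 ± 0.733, with a log2 fold change of 0.09 in the main test.

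Beyond the genes called by DESeq2, the lower side of the list by p held Tk1, Hamp2, Cnn3, Pim3, Abcb6, Rab3ip, Inmt, Pgpep1, Dcxr and Csrnp1. Inmt, an indolethylamine N-methyltransferase, was the most abundant of them, with a median of 357 CPM in LL (260 to 525) and 211 CPM in LL GKA (161 to 377). Its log2 fold change was -0.61 (SE 0.17, edgeR adjusted p 0.569). Hamp2, a paralogue of the hepcidin gene, ranged from 10.0 to 44.9 CPM in LL and from 0 to 12.8 CPM in LL GKA (log2 fold change -1.80, SE 0.45, edgeR adjusted p 0.465). Hamp, which encodes hepcidin and has a near-identical sequence, was at -0.40 (SE 0.59), and the division of reads between the pair is uncertain. Pim3, a serine/threonine kinase, was at -0.60 (SE 0.16) in LL, -0.54 (SE 0.23) in PP and 0.03 (SE 0.20) in PL. Tk1 (thymidine kinase) and Abcb6 (a porphyrin transporter) have exons that overlap other genes.

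The higher side held Isg20l2, Ktn1, Rapgef4, Ifih1, Ercc4, Casp8, Dpy19l1, Arsg, Trim30d, Cop1, Ap2a1, Fign, Cygb and Wdr75 beside Fads3. Rapgef4, a guanine nucleotide exchange factor activated by cAMP, had medians of 45.7 CPM in LL (37.4 to 64.0) and 64.2 CPM in LL GKA (49.5 to 91.2). Its log2 fold change was 0.50 (SE 0.12, edgeR adjusted p 0.370). Ktn1, a kinesin anchor, was at 0.35 (SE 0.08), with 9 LL GKA livers above every LL liver. Cygb, a globin of stellate cells, was at 0.55 (SE 0.15), and 12 of 13 genes of the stellate cell and matrix list were also above 0 (median 0.23), none at an unadjusted p below 0.05. Without LL GKA mouse 48 the median of this list was 0.01. In the macrophage list, 9 of 12 genes tested were above 0 with a median of 0.05 (-0.05 without LL GKA mouse 48), and the summed level was 227 to 518 CPM in LL and 243 to 614 CPM in LL GKA. In bulk liver, fewer cells of a type and less RNA per cell cannot be told apart. Ap2a1, an adaptor subunit, had the largest log2 fold change of these genes, 2.41 (SE 0.66), but its livers fell in separate levels. Values were 0 in 2 LL GKA livers and up to 22.8 CPM in others, and 12.9 CPM in LL mouse 41 against a median of 1.4 CPM in LL. With the transcript length offset its log2 fold change was 0.50, and its exons overlap Fuz. Exons of Isg20l2 and Arsg, and of Pklr, Srebf1, Cyp51, Nsdhl, Sqle, G6pdx, Irf7 and Gls2 in the gene lists, also overlap other annotated genes, and the division of their reads is uncertain.

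These 30 genes were picked by their p in LL, so only the other genotypes measure them again. Of 29 tested in PP, 20 had the same sign there, beside 48.6% of all genes tested in both. An unadjusted p below 0.05 in PP was found for 2 of them, beside 3.56% of all genes. In PL, 20 of 30 had the same sign, beside 51.7% of all genes tested in both. There 2 had an unadjusted p below 0.05, beside 3.18% of all genes.

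Among the lists with at least 8 genes tested, immediate early genes had the lowest median. These genes, such as Nr4a1, Jun family members and Dusp1, are known to respond within minutes to hormones and stress, through factors such as CREB that bind the cAMP response element (CRE). Of 16 listed, 10 were tested, 8 were below 0, and the median was -0.46, against 0.002 for all genes. Lower values at an unadjusted p below 0.05 were found for 5 of the 10 (Zfp36, Junb, Jund, Nr4a1 and Dusp1), where 3.2% of all genes had them, and 0 passed the adjustment. Zfp36, which encodes an mRNA decay factor, ranged from 21.7 to 52.9 CPM in LL (median 37.3) and from 19.6 to 35.1 CPM in LL GKA (median 25.7). All 10 LL GKA livers were below the LL median (log2 fold change -0.48, SE 0.15, edgeR adjusted p 0.616). Dusp1, a phosphatase of MAP kinases, had medians of 34.1 and 21.0 CPM (-0.56, SE 0.27), Junb 8.16 and 6.07 CPM (-0.59, SE 0.21) and Jund 16.5 and 9.91 CPM (-0.44, SE 0.20). Nr4a1, an orphan nuclear receptor, was at -1.29 (SE 0.60), yet without LL mouse 44, which had 23.9 CPM, it was at -0.67 with an unadjusted edgeR p of 0.220. The list's median was -0.18 in PP and -0.14 in PL. Exons of Junb, Jund and Dusp1 overlap other annotated genes.

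Promoters were read from 250 bases before to 50 bases after the annotated start of each gene (GRCm39). The palindromic CRE, TGACGTCA, which reads the same on both strands, was found in 4 of the 10 immediate early promoters (Btg2, Jund, Ier2 and Dusp1), against 3.3% of 9998 promoters of genes tested. It was found in 0 of the promoters of the 30 genes with the smallest p. The promoters of Dusp1 and Jund are shown with the CRE in capitals. Both genes were below 0 at an unadjusted p below 0.05 in the 20 livers, Jund only narrowly (edgeR unadjusted p 0.0383). The Dusp1 promoter is on the minus strand and the Jund promoter on the plus strand.
Dusp1, chr17:26727444-26727743: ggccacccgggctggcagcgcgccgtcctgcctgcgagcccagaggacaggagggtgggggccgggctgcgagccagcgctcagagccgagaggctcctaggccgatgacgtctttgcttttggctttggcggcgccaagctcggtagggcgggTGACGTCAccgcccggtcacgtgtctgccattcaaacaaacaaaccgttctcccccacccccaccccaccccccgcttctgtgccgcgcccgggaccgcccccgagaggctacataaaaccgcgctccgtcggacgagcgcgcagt
Jund, chr8:71151349-71151648: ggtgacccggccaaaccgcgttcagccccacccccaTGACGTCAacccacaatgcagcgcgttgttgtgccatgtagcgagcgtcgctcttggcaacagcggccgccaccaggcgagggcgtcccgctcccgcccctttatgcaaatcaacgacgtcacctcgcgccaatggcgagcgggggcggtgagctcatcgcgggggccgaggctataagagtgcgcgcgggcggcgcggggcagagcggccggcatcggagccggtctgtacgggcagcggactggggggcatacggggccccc
The first base of the element lies at -96 from the start site in Dusp1 and at -214 in Jund. Of the immediate early genes at an unadjusted p below 0.05, Zfp36, Junb and Nr4a1 did not hold these letters in this window. Btg2 and Ier2 hold them but were not at that threshold in the main test. The share of promoters with the element is set by the choice of the list and does not depend on GKA. A part of CREB in these results was not tested.

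The clock list, which holds Per, Cry and the D-box factors, had 4 of 17 genes above 0 and a median of -0.20. Per1 ranged from 3.79 to 15.8 CPM in LL (median 7.35) and from 1.22 to 6.47 CPM in LL GKA (median 3.59). It had a log2 fold change of -0.97 (SE 0.29, edgeR unadjusted p 0.00246), beside -0.60 (SE 0.37) in PP and 0.14 (SE 0.38) in PL. Zbtb16, which glucocorticoids induce, was at -1.33 (SE 0.58), the lowest value of the glucocorticoid and metallothionein list. In that list 5 of 10 genes were above 0 and the median was 0.02, beside -0.56 in PP and 0.22 in PL. Without the 4 LL livers that stood apart its median was -0.28. Herpud1, a gene of endoplasmic reticulum stress, had medians of 196 CPM in LL and 142 CPM in LL GKA (-0.54, SE 0.16), and it was at -0.61 (SE 0.17) in PP and -0.13 (SE 0.15) in PL. It was the member of its list at an unadjusted p below 0.05, and 5 of 23 genes of endoplasmic reticulum stress were above 0.

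Cholesterol biosynthesis genes leaned the other way. All 20 were tested, 17 were above 0 and the median was 0.17 (0.10 without LL GKA mouse 51). Higher values at an unadjusted p below 0.05 were found for 5 of 20 (Fdps, Hsd17b7, Nsdhl, Cyp51 and Sqle), where 2.95% of all genes had them, and 0 passed the adjustment. Fdps, which makes farnesyl diphosphate, ranged from 43.6 to 101 CPM in LL (median 77.4) and from 74.8 to 205 CPM in LL GKA (median 96.1), with a log2 fold change of 0.58 (SE 0.19, edgeR adjusted p 0.637). Sqle, the squalene epoxidase, had medians of 1.70 and 4.10 CPM and a log2 fold change of 0.90 (SE 0.38). All 10 LL GKA livers were above the LL median of Sqle. The list's median was -0.01 in PP and 0.56 in PL.

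**Figure D3:**
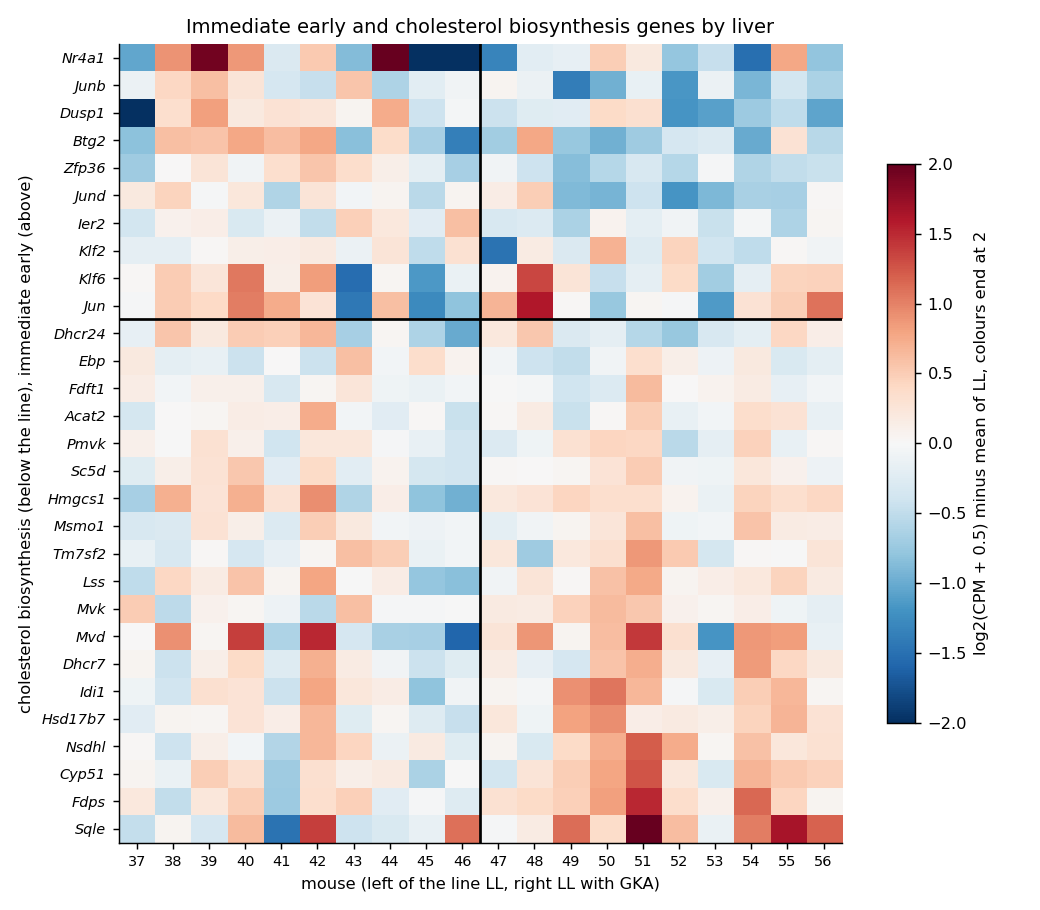
Log2(CPM + 0.5) minus the mean of the 10 LL livers (colour, ending at 2 either way) of 10 immediate early genes and 19 of 20 cholesterol biosynthesis genes (rows) in each liver (columns, numbered by mouse). Nr4a1 is high in LL mice 39 and 44 and low in LL mice 45 and 46, and LL GKA mouse 51 has high values of Fdps and Sqle.

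Lipogenesis had 12 of 15 genes above 0 and a median of 0.19, which was 0.28 without LL mouse 42 and 0.04 without the 4 LL livers that stood apart. The desaturases Fads2 (801 to 1086 CPM in median, log2 fold change 0.37, SE 0.13) and Fads1 (0.31, SE 0.15) were the members at an unadjusted p below 0.05. Fasn and Srebf1, which encode fatty acid synthase and the transcription factor SREBP1, were at -0.17 (SE 0.33) and -0.36 (SE 0.24). Fads2 was at 0.19 (SE 0.13) in PP and 0.36 (SE 0.17) in PL. In triglyceride synthesis 1 of 8 genes was above 0 and the median was -0.19. Plin2, which coats lipid droplets, had medians of 719 CPM in LL and 942 CPM in LL GKA (0.37, SE 0.16). G6pdx, which opens the pentose phosphate pathway, was at 0.51 (SE 0.22) from 2.03 CPM in median.

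Interferon-stimulated genes had the highest median of the lists with at least 8 genes tested, 0.32, with 9 of 10 above 0. Usp18 (0.45, SE 0.18), Oasl2 (0.48, SE 0.23) and Irf7 (0.25, SE 0.11) had higher values at an unadjusted p below 0.05. Ifih1, a sensor of viral RNA outside this list, was at 0.33 (SE 0.08). The median was 0.09 in PP and 0.16 in PL. Acute phase genes had 18 of 20 above 0 and a median of 0.20 (0.07 without LL GKA mouse 53), with Apcs, serum amyloid P, at 0.45 (SE 0.15) and Fga, a fibrinogen chain, at 0.30 (SE 0.14). Saa1 and Saa2, the serum amyloid A genes of inflammation, were at 0.47 (SE 0.42) and 0.64 (SE 0.39) in LL and at 2.21 (SE 0.74) and 2.76 (SE 0.86) in PL.

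Detoxification and amino acid genes were on the lower side. In the CYP2 and CYP3A families 9 of 29 genes tested were above 0 (median -0.17), and Cyp2a5, Cyp2b9 and Cyp3a59 had lower values at an unadjusted p below 0.05. Cyp2a5 ranged from 236 to 1226 CPM in LL (median 489) and from 55.2 to 612 CPM in LL GKA (median 261), with a log2 fold change of -1.11 (SE 0.36, edgeR adjusted p 0.650). It was at 0.33 (SE 0.27) in PP and 0.01 (SE 0.35) in PL. In the NRF2 and glutathione list the glutathione transferases Gsta2 (-0.81, SE 0.33), Gsta4 (-0.52, SE 0.21) and Gsta3 (-0.24, SE 0.09) were lower at an unadjusted p below 0.05, and Nqo1 was at 0.09. Reads of these families may be divided uncertainly between near-identical members. In the urea cycle and transamination list 2 of 16 genes were above 0 (median -0.14), and beside Gpt the liver glutaminase Gls2 was at -0.36 (SE 0.14).

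Genes that mark the zones of the lobule were divided. Of 12 pericentral genes, Tbx3 (0.53) and Axin2 (0.37, SE 0.17), both of Wnt signalling territory, had higher and Cyp2a5 had lower values at an unadjusted p below 0.05. Of 11 periportal genes, 2 were above 0, and Cdh1, E-cadherin, was at 0.71 (SE 0.28) while Hal, the histidine ammonia-lyase, was at -0.35. Endothelial markers had 9 of 10 genes above 0 and a median of 0.19, none at an unadjusted p below 0.05, and the median was 0.06 without LL GKA mouse 48, 0.08 without LL GKA mouse 50 and 0.34 without LL mouse 41. Fatty acid oxidation and PPAR-alpha targets had 10 of 20 genes above 0, a median of -0.01 and 0 genes at that threshold. Hepatokines, the secreted factors of the liver, had 7 of 19 above 0 and a median of -0.15, which was -0.04 without LL mouse 43, -0.03 without LL mouse 46 and 0.15 without the 4 LL livers that stood apart.

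In the nuclear-encoded respiratory chain 8 of 85 genes were above 0, with a median of -0.09 and 0 genes at an unadjusted p below 0.05. Without LL mice 37, 43, 45 and 46, 77 of 85 genes were above 0 and the median was 0.12. Of the 13 protein-coding mitochondrial genes 9 were above 0. mt-Co2 was at -1.14 (SE 0.37), with 11610 CPM in LL mouse 46 against a median of 1955 CPM in LL, and at -0.62 without that mouse.

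**Figure D4:**
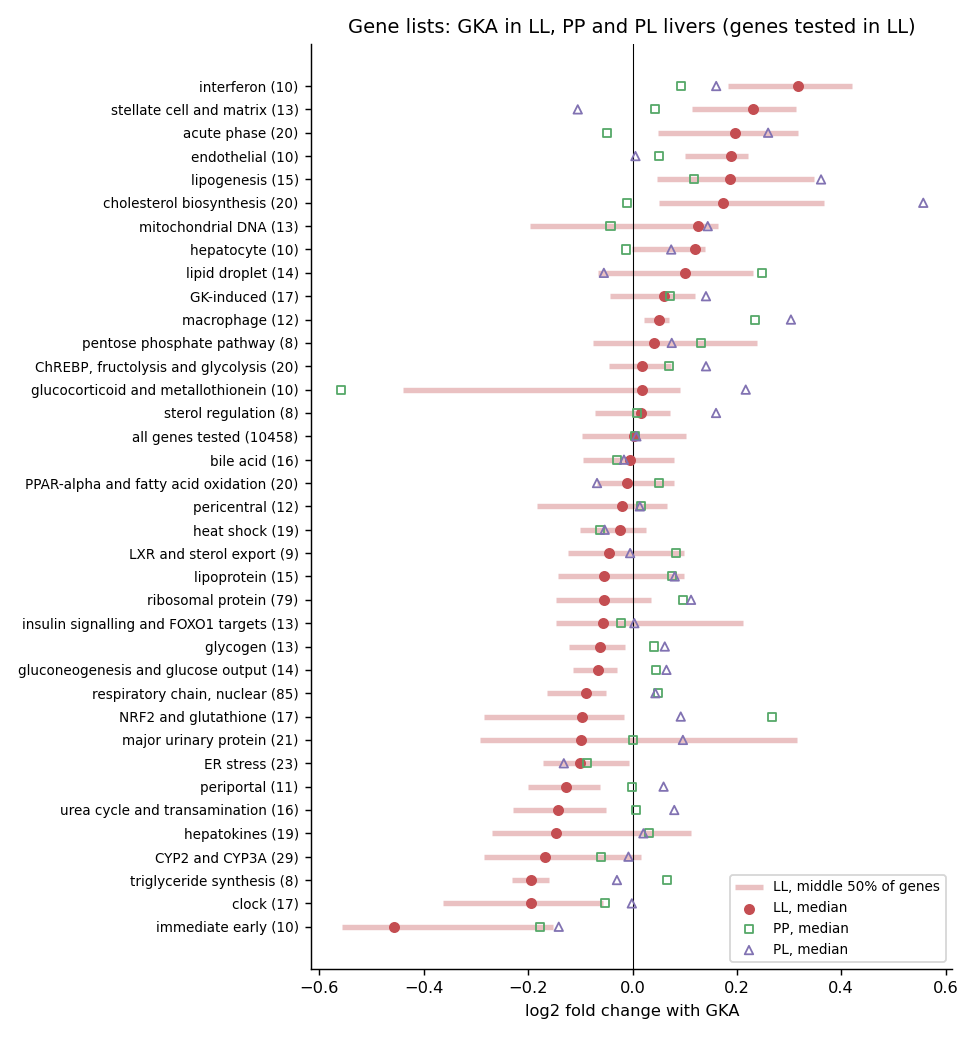
Median log2 fold change with GKA (x axis) of the gene lists with at least 8 genes tested and of all 10458 genes (rows, number of genes tested in brackets) in LL (red, bar over the middle 50% of genes), PP (green squares) and PL (purple triangles). Immediate early genes have the lowest LL median, -0.46, and interferon genes the highest, 0.32.

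The livers that stood apart were described by principal components. The first principal component of the 20 livers (19.6% of the variance) was -22.1, -34.6, -35.6 and -44.2 in LL mice 37, 43, 45 and 46, and between 8.34 and 34.1 in the other LL livers. LL GKA livers lay between -22.0 and 32.1. The first component of 17 clock genes (49.6% of their variance, high where Dbp and Tef are high and Bmal1 is low) was between 1.00 and 1.68 in the same 4 LL livers and between -0.87 and 0.28 in the other 6. In LL GKA it ranged from -2.19 in mouse 49 to 1.38 in mouse 53. Gene levels varied a little more in LL, with a median SD of log2 CPM of 0.304 against 0.276 in LL GKA. The labels give no hour of collection, and its part in the results was not tested.

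With the clock component as a covariate, 242 genes (2.31%) had higher and 227 (2.17%) lower values at an unadjusted p below 0.05. The immediate early list had a median of -0.45 and again 5 such genes, but Jund (edgeR unadjusted p 0.0511) was replaced by Btg2 (0.0449). For cholesterol biosynthesis the median was 0.10 and 1 gene was left in place of 5. Some list medians changed sign with this covariate. Major urinary proteins went from -0.10 to 0.42 (20 of 21 genes above 0) and ribosomal proteins from -0.05 to 0.08 (58 of 79). The macrophage list went from 0.05 to -0.07 (4 of 12).

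The 4 LL livers were also left out, a choice made on their expression after seeing the data, so that its counts are a description. In the 6 LL and 10 LL GKA livers left, 554 genes (5.11%) had higher and 567 (5.23%) lower values at an unadjusted p below 0.05, of 10850 tested. The gene called was Tob1, an anti-proliferative gene (1 of 10850, 0.00922%). Tob1 was within 41.3 to 47.8 CPM in the 10 LL GKA livers and from 32.9 to 93.5 CPM in LL, with the 4 livers at 32.9, 46.4, 32.9 and 43.4 CPM. Its log2 fold change was -0.67 without them (edgeR adjusted p 0.00113) and had an adjusted p of 0.776 in all 20 livers.

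Several lists turned or shrank without the 4 livers. Major urinary proteins, which are secreted by hepatocytes, went from 8 of 21 genes above 0 and a median of -0.10 to 21 of 21 and 1.19, with 13 genes at an unadjusted p below 0.05 in place of 1. Ribosomal proteins went from 28 of 79 above 0 and a median of -0.05 to 75 of 79 and 0.22, with 34 genes at that threshold in place of 0. The macrophage list went to 1 of 12 above 0 and a median of -0.16, and the pericentral list from a median of -0.02 to 0.13. The endothelial median was 0.02 with 6 of 10 above 0, and the stellate median 0.11 with 10 of 13. Lipogenesis had a median of 0.04 with 0 genes at an unadjusted p below 0.05, where Fads2 was at 0.17 and Fads1 at 0.11.

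Immediate early genes were at -0.54 without the 4 livers, with 0 of 10 above 0 and 5 at an unadjusted p below 0.05, again with Btg2 in place of Jund. Cholesterol biosynthesis had 3 genes higher and 3 lower at that threshold, and Cyp51, Sqle and Hsd17b7 were no longer among them. The interferon median was 0.30 and the acute phase median 0.30. Other medians moved further below 0. That of NRF2 and glutathione went from -0.10 to -0.295 and that of endoplasmic reticulum stress from -0.10 to -0.19. Triglyceride synthesis went from -0.19 to -0.31, though its genes above 0 went from 1 of 8 to 3 of 8. Some medians moved nearer to 0. That of CYP2 and CYP3A went from -0.17 to -0.06, with 3 genes higher and 5 lower at an unadjusted p below 0.05. Urea cycle and transamination went from -0.14 to -0.065. Gluconeogenesis and glucose output went from -0.07 to -0.01, with 6 of 14 genes above 0. Cyp2a5 was at -0.33 (SE 0.35), Foxo1 at -0.15 and Gls2 at -0.23, and like Irf7, Oasl2, Apcs, Plin2, G6pdx, Axin2, Hal, Dcxr and mt-Co2 they were no longer at an unadjusted p below 0.05.

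**Figure D5:**
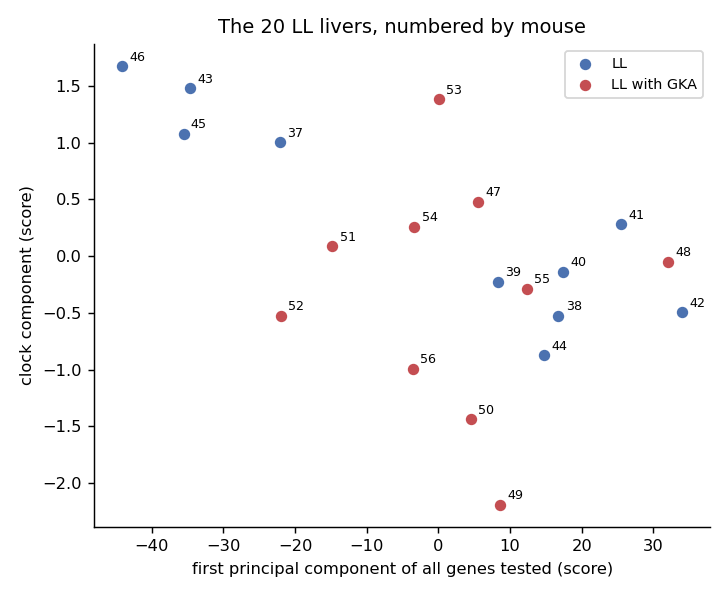
First principal component of all genes tested (x axis, score) against the clock component (y axis, score) in the 20 livers, numbered by mouse, with LL in blue and LL with GKA in red. LL mice 37, 43, 45 and 46 lie at the upper left, at -22.1 or lower on the x axis.

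The response to GKA was set beside that of the other genotypes. In PP livers 0 of 10548 genes were called (0%) and 376 (3.56%) had an unadjusted p below 0.05. In PL livers 0 of 10399 genes were called (0%) and 331 (3.18%) had an unadjusted p below 0.05. Across 10335 genes tested in LL and PP, which are not independent replicates, the log2 fold changes had a Pearson r of -0.02, and 48.6% had the same sign. Across 10267 genes tested in LL and PL, r was 0.02 and 51.7% had the same sign. Of the LL genes at an unadjusted p below 0.05, 299 of 633 (47.2%) had the same sign in PP and 368 of 635 (58%) in PL.

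Whether the response differed by genotype was tested by the interaction of GKA with genotype. For LL against PP 0 of 11193 genes were called (0%), 644 (5.75%) had an unadjusted p below 0.05 and the smallest edgeR adjusted p was 0.181. For LL against PL 0 of 11164 genes were called (0%), 442 (3.96%) had an unadjusted p below 0.05 and the smallest adjusted p was 1. For Gckr the interaction had an unadjusted edgeR p of 0.341 against PP and 0.400 against PL. A p that misses the threshold does not show that the genotypes respond alike.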

How the data were processed

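Liver RNA of 56 mice was sequenced, 20 of them LL. The authors trimmed no reads and ran Salmon 1.4.0 on the GENCODE M26 mouse transcripts (GRCm39). The deposited files give for 139225 transcripts of 1 mouse an estimated count and, per the file headers, TPM, length and effective length. Transcripts were assigned to genes by identifier in GENCODE vM39 (137570 matched, 98.8%), and counts were summed per gene and rounded. Genes that passed filterByExpr were tested with the edgeR 4.0.16 quasi-likelihood test (R 4.3.3, TMM) on the groups compared, with the Benjamini-Hochberg adjustment over all genes tested. Log2 fold changes carry their standard error (SE), and intervals are 95%. CPM are counts scaled to a common library total with TMM factors of the 20 livers, and log2 CPM for components has a prior count of 2. A list is described by counts and its median, without a test. Single values were compared by permutation with 100000 resamples (SciPy 1.17.1), the library measures with adjustment over them. TPM served only for transcript shares.

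Named genes were Gckr, members of the gene lists, the 15 higher and 15 lower protein-coding genes with an established symbol and the smallest p, and genes called by an alternative. Some genes that these rules pick are not reported here, but they stay in every count and median. Tools tried as alternatives were DESeq2 1.42.0 and limma 3.58.1 (voom). Members and lists were chosen with earlier results of these data known. The fit without 4 LL livers was chosen after seeing the data. The labels number the mice but give no pairing, litter, batch or hour. Livers of 1 group differed beyond counting noise in each pair (lowest chi-square per degree of freedom 11.3), and none was counted as a duplicate. The test was tried on simulated counts. Each p-value sets the difference of its contrast against the spread between the mice in that fit.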

Additional observations from a re-analysis of the deposited data

Results flagged for a closer look

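Within each group of 10 livers, 83 named genes were examined for a liver far from the others, by the gap to the nearest liver over the range (above 0.466). Of 166 groups, 13 had such a liver. About 5% are expected by chance if values follow a normal distribution, which was not tested for these CPM. In LL these were Isg20l2 in mouse 39 (7.98 CPM, group median 5.32), Ercc4 in mouse 46 (1.38 CPM, median 3.13), Ap2a1 in mouse 41 (12.9 CPM, median 1.4), Gm63662 in mouse 45 (67.0 CPM, median 0), Axin2 in mouse 44 (6.80 CPM, median 3.50), Cdh1 in mouse 41 (1.84 CPM, median 6.74), Per1 in mouse 41 (15.8 CPM, median 7.35), Nr4a1 in mouse 44 (23.9 CPM, median 3.13) and mt-Co2 in mouse 46 (11610 CPM, median 1955). In LL GKA they were Gm63662 in mouse 52 (5.53 CPM, median 0), Apcs in mouse 53 (92.9 CPM, median 47.2), Usp18 in mouse 56 (15.8 CPM, median 7.62) and Mup10 in mouse 48 (15270 CPM, median 119).

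Mup10, a major urinary protein, had a log2 fold change of 3.49 (SE 1.07) in all livers and -0.06 without mouse 48. Without LL mouse 41, Per1 was at -0.79 and Ap2a1 at 3.29. Isg20l2 without LL mouse 39 was at 0.55, with an edgeR adjusted p of 0.088. Nr4a1 and Usp18 were no longer at an unadjusted p below 0.05 without the liver named (edgeR unadjusted p 0.220 and 0.0831).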

How the results depend on the processing

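No paired analysis was possible because the labels give each mouse a number of its own. The count of genes called for GKA in LL was 0 in the main test, 6 by DESeq2 on the LL livers or on 6 groups, 1 with the transcript length offset, 1 without 4 LL livers, and between 0 and 1 when each liver was left out. The 1 was Akr1c19 without LL mouse 44 (edgeR adjusted p 0.0404). DESeq2 on 6 groups called 8 genes for GKA in PP, 3 in PL, 3 for the interaction against PP and 2 against PL, and edgeR on 6 groups called 1 in PP. The other settings called 0. Genes at an unadjusted p below 0.05 numbered 643, 1556 without the low-count filter (24202 genes), 1121 without the 4 LL livers, and 519 to 775 with each liver left out. Gckr was at -0.0264 to 0.0506 with each liver left out, at -0.0059 without the filter and at 0.22 with the length offset. Its sign thus changed between settings. Rab3ip changed sign too, at 0.20 with the length offset. The other 28 genes named by their p kept their direction in every setting. List medians were less stable. Without the 4 LL livers those of major urinary proteins (-0.10 to 1.19), ribosomal proteins (-0.05 to 0.22), the nuclear-encoded respiratory chain (-0.09 to 0.12), hepatokines (-0.15 to 0.15) and macrophages (0.05 to -0.16), among others, changed sign, and without LL GKA mouse 48 the stellate median went from 0.23 to 0.01. Libraries of 5478325 to 7785792 reads leave genes of few CPM imprecise, and the median SE of the log2 fold change was 0.135.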
